A study of Mus musculus with 4 samples.

Results

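Genes of the major histocompatibility complex (MHC, H2 in the mouse) and of antigen processing were examined in colonic epithelial cells (CECs). The rule that chose them uses gene names and no measured value, but it was set with earlier results of these data known. All symbols of the platform annotation that start with H2- were taken, together with 18 named genes of antigen processing and presentation, if a probe set carried only that symbol. This gave 53 genes, each with 1 probe set, out of 30176 genes with a probe set of their own and 65956 probe sets in all. Of the 53, 28 belong to class I molecules, 9 to peptide supply and loading, 14 to the class II pathway and 1, Ciita, to the regulators. The last, H2-Ke6, lies within the H2 complex but encodes a steroid dehydrogenase, and read between 6.94 and 7.13 in all 4 arrays. Psme2, Nlrc5 and Cd74 from the named genes shared all of their probe sets with other symbols and were left out. In total 13 probe sets with several symbols held a symbol of the rule, among them members of the H2-Q and H2-T families, and these are not reported.

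Class I molecules consist of a heavy chain and β2-microglobulin and show peptides from inside the cell to CD8+ T cells. The peptides are cut by the proteasome, in which the interferon-inducible subunits Psmb8, Psmb9 and Psmb10 can replace the standard ones, pumped into the endoplasmic reticulum by Tap1 and Tap2, trimmed by Erap1 and loaded with the help of Tapbp. Class II molecules are pairs of an α and a β chain that show peptides from endosomes to CD4+ T cells. They are constitutive on B cells and dendritic cells, and intestinal epithelial cells can be induced to make them by interferon-γ through the transactivator Ciita. Nlrc5 has the corresponding role for class I.

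CECs were enriched by positive selection for EPCAM from the colon of female BALB/cJ mice, 8 to 10 weeks old, at day 5 of the TNBS model. Vehicle mice received neither compound, I3C mice received indole-3-carbinol, which comes from cruciferous vegetables and whose products bind the aryl hydrocarbon receptor, at 40 mg/kg by daily intraperitoneal injection, TNBS + Veh mice received 1 mg of TNBS, a hapten that provokes colitis, into the rectum, and TNBS + I3C mice received both. Ethanol given into the rectum and DMSO with corn oil given into the peritoneum were the vehicles. Cells of a group were pooled for 1 Clariom D array, so that every group is a single measurement, no difference could be tested, and an uneven share of cells from single mice would go unseen. The labels name epithelial cells but their extraction note names whole colon tissue. As the cells are measured in bulk, more cells of a type and more RNA per cell cannot be told apart. BALB/cJ mice carry the H2 haplotype d, whereas the reference genome is that of C57BL/6J with haplotype b, so the H2 probes may not match these mice at every base. This is shared by all 4 arrays.

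The deposited values are log2 signals, on which a difference of 1 is 2-fold. Background was judged from 1567 probe sets of olfactory, vomeronasal and taste receptors, which were assumed to be mostly silent in these cells. Some may not be, and Olfr837 among them read 6.09 (Vehicle), 6.22 (I3C), 6.10 (TNBS + Veh) and 6.59 (TNBS + I3C). Their 95th percentile lay between 5.23 and 5.43 in the 4 arrays (the receptor level). Of the 53 genes, 34 were above it in at least 1 array and 19 in none. A mean over the 4 arrays above 5.43 was found for 31 genes, which are called bright here, and for 9863 of 19296 coding probe sets. All 8 epithelial markers were high in every array, with Epcam at 17.06 (Vehicle), 16.91 (I3C), 17.06 (TNBS + Veh) and 17.13 (TNBS + I3C). Krt8 among them stood at the highest value of the array in all 4, so it could show no difference. High markers do not make the pools pure. By flow cytometry the paper found that only part of the enriched cells, though most, were EPCAM-positive. The values reported here are thus not those of epithelial cells alone, and the share of other cells in each array was not tested. All 6 measured B cell markers stayed below the receptor level. The array median over coding probe sets lay within 0.05 of that of Vehicle in all groups.

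MHC and antigen processing genes were mostly higher after TNBS + I3C than after TNBS + Veh, mostly by less than 1.5-fold. The difference was greatest for H2-Ea, a class II chain gene, at 2.46-fold. Of the other class II chain genes, H2-Aa was 1.48-fold and H2-Ab1 1.17-fold higher, H2-Eb1 was higher by at least 0.38 on the log2 scale, as it was above background after TNBS + I3C only, and the dim H2-Eb2 differed by -0.12. The class I genes B2m and H2-T10 and the immunoproteasome gene Psmb8 were 1.43-fold, 1.49-fold and 1.46-fold higher. Of the 53 genes, 43 were higher, 10 lower and none equal, with a median log2 difference of 0.20, whereas 49.3% of coding probe sets were higher and their median was 0. Among the 31 bright genes, 28 were higher (median 0.26), against 46.3% of bright coding probe sets (median -0.01). The 3 bright genes that were lower were Erap1, Ifi30 and H2-M2. A difference of at least 2-fold was reached by H2-Ea alone, where 0.596% of coding probe sets were 2-fold higher and 0.943% 2-fold lower. At 1.5-fold, 2 genes were higher, H2-Ea and H2-Eb1, and none was lower, against 2.63% and 2.66% of coding probe sets. H2-Eb1 was counted there against a value at background, and its bound of 0.38 lies under 1.5-fold, which leaves H2-Ea. The counts past these thresholds were near the background, and the family stood off from it by direction. As each difference comes from 1 pair of arrays, the size that chance alone gives for a family of related genes is not known. Under quantile normalization, 42 of the 53 were higher. Of the 8 epithelial markers, 6 were also higher with TNBS + I3C than with TNBS + Veh (median 0.115), with Krt18 at 0.65, and their part in the values of the MHC genes was not tested.

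In TNBS + Veh against Vehicle the family was not raised along with the rest of the bright genes. Of 53 genes, 15 were higher, 37 lower and 1 equal (median -0.06), against 46.2% of coding probe sets higher (median -0.02). Of the 31 bright genes, 8 were higher and 23 lower (median -0.08), against 62.8% of bright coding probe sets higher (median 0.09). Quantile normalization gave 25 of 53 higher and 9 of 31 bright genes higher, so the count over all 53 depends on the scaling. Ifi30, a thiol reductase of lysosomes, was 2.30-fold higher and was the only gene past 2-fold or 1.5-fold. Of coding probe sets, 1.77% were 2-fold higher and 0.529% were 2-fold lower, and the shares at 1.5-fold were 6.06% and 2.69%. Neutrophil markers were much higher in the same array, all 8 of them by at least 1.5-fold, with S100a9 at 5.64 (Vehicle), 6.33 (I3C), 13.88 (TNBS + Veh) and 6.13 (TNBS + I3C). Their part in the lower values of the MHC genes in that array was not tested.

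In I3C against Vehicle none of the 53 genes differed by 1.5-fold in either direction, where 1.26% of coding probe sets were higher and 1.25% lower by that much, and 0.218% and 0.114% by 2-fold. Differences ran from -0.38 to 0.37. Of the 53, 34 were higher (median 0.05), against 48.1% of coding probe sets, and of the 31 bright genes 17 were higher (median 0.01), against 43.8%. In TNBS + I3C against Vehicle, 34 of 53 were higher (median 0.12), against 48.3% of coding probe sets, and 24 of 31 bright genes (median 0.16), against 64.8% of bright coding probe sets with a median of 0.09. Ifi30 was 2.07-fold higher, and B2m, H2-Ea, H2-Eb1 and H2-M1 were at least 1.5-fold higher by their measured values, of which H2-M1 was dim in both arrays and H2-Eb1 was at background in Vehicle, with a bound of 0.38. None was lower by 1.5-fold. The background shares were 0.648% and 0.166% at 2-fold, higher and lower, and 3.8% and 1.37% at 1.5-fold. TNBS + Veh enters both of the colitis comparisons above and Vehicle enters 3 of the 4, so they are not independent of each other.

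**Figure D1:**
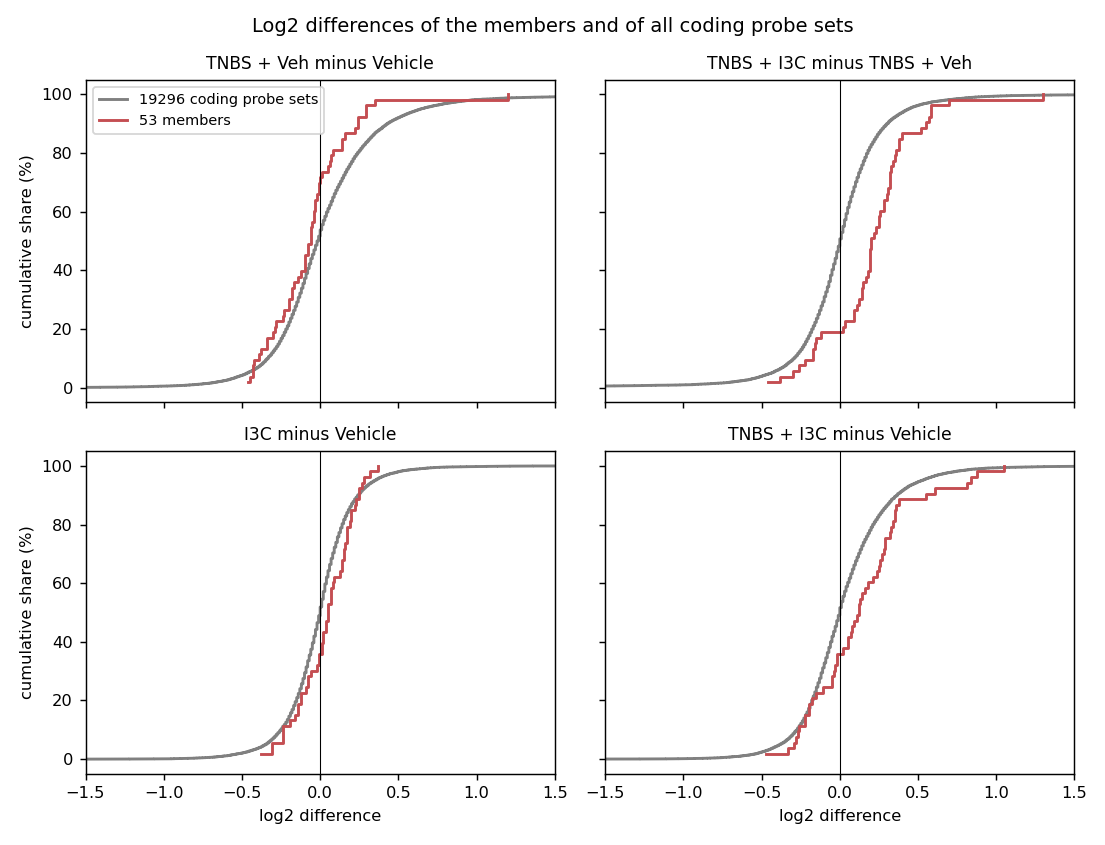
Cumulative share (%) of 53 MHC and antigen processing genes (red) and of 19296 coding probe sets (grey) by log2 difference, in 4 comparisons with 1 array per group. In TNBS + I3C minus TNBS + Veh the red curve lies to the right of the grey one, with medians of 0.20 and 0, and in I3C minus Vehicle the curves lie close together, with medians of 0.05 and 0.

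Seen per array, TNBS + Veh held the lowest value for 19 of the 31 bright genes (61.3%) and TNBS + I3C the highest for 18 (58.1%). For bright coding probe sets these shares were 21.7% and 31.4%. TNBS + Veh held the highest value for 2 of the 31, Erap1 and Ifi30, against 41.5% of bright coding probe sets.

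The classical class I genes were measured well above the receptor level. B2m, which encodes β2-microglobulin, the invariant partner of all class I heavy chains, read 16.39 (Vehicle), 16.38 (I3C), 16.68 (TNBS + Veh) and 17.20 (TNBS + I3C). It was thus alike in both arrays without TNBS, higher by 0.29 in TNBS + Veh (0.10 under quantile normalization) and higher by 0.81, or 1.75-fold, in TNBS + I3C than in Vehicle. Bright probe sets vary widely between these arrays: of 157 coding probe sets of mean signal 14 to 18, the central 90% of differences between TNBS + I3C and Vehicle ran from -0.20 to 1.19, which includes that of B2m. H2-D1, a heavy chain gene of the D region, read 11.11, 11.15, 11.25 and 11.44 in the same order. H2-K1, the heavy chain gene at the K end, read 10.60, 10.51, 10.50 and 10.85. All 3 genes were highest in TNBS + I3C. H2-D1 differed by 0.14 and H2-K1 by -0.10 in TNBS + Veh against Vehicle, and quantile normalization turned the sign for H2-D1 (-0.10) and gave -0.35 for H2-K1. Against TNBS + Veh, TNBS + I3C was higher by 0.19 for H2-D1 and 0.35 for H2-K1, both within the central 90% of 1293 coding probe sets of mean signal 10 to 14, which ran from -0.57 to 0.73.

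The promoters of B2m and H2-K1 are shown because both genes were highest in TNBS + I3C and class I genes are known to be controlled through such elements. Windows of 250 bases before to 50 bases after the annotated start are from RefSeq (GRCm38.p6, C57BL/6J and not BALB/cJ), and 38 of the 53 genes had a window. Capitals mark matches on either strand to GATTGG, the core of the Y box bound by NF-Y. They also mark GAAANTGAA, a form of the core of the interferon-stimulated response element, and GGGATTCCC, the core of an NF-κB site. The last marked letters are AACTGATG, the end of the X box bound by RFX. Only these exact letters were searched, so a window without a mark may still hold another form of the element. The B2m window is chr2:122147437-122147736 on the plus strand and that of H2-K1, 1 of its windows in the table, is chr17:34000298-34000597 on the minus strand.
B2m: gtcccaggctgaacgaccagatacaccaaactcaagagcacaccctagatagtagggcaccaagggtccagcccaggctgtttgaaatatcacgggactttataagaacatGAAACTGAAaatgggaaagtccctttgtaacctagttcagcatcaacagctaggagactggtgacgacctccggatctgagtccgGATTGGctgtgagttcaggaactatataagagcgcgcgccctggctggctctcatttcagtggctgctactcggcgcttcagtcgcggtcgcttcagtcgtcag
H2-K1: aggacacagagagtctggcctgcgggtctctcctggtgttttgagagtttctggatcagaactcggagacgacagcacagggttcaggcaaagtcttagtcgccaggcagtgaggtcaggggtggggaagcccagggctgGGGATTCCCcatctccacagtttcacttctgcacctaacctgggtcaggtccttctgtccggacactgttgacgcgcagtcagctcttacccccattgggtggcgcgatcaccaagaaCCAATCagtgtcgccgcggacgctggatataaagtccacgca
GATTGG was found for 25 of the 38 genes and in 16.1% of all 32851 windows of this length. A gene was counted if any of its windows had the letters, while the shares are over single windows, so these are unlike measures. GAAANTGAA was found for B2m and Erap1, against 2.21% of all windows, and GGGATTCCC for H2-K1 and H2-D1, against 0.353%. Related genes of the H2 families can have similar promoters, so these matches are not independent, and they say nothing on whether a factor was bound.

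The H2-Q genes, which encode nonclassical class I molecules of the Qa region, had the same lowest array. H2-Q4 read 9.24 (Vehicle), 9.47 (I3C), 9.04 (TNBS + Veh) and 9.40 (TNBS + I3C). H2-Q1 read 6.71, 6.72, 6.33 and 6.73, and H2-Q2 read 7.62, 7.56, 7.45 and 7.71. All 5 measured members, these with H2-Q3 and H2-Q10, were lowest in TNBS + Veh, by 0.05 to 0.38 below Vehicle, and were 0.20 to 0.40 higher with TNBS + I3C than with TNBS + Veh. H2-Q3, listed as a pseudogene, read 6.02, 6.30, 5.97 and 6.28, and H2-Q10 6.31, 6.36, 6.07 and 6.27. The levels of the 5 in TNBS + I3C lay within 0.26 of Vehicle. Near-identical copies can share probes in this family, so the 5 are not separate pieces of evidence.

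The H2-T genes followed the same order for the colitis arrays. H2-T10, whose product is a ligand of γδ T cell receptors and which the C57BL/6J reference lists as a transcribed pseudogene, read 6.82 (Vehicle), 7.01 (I3C), 6.62 (TNBS + Veh) and 7.20 (TNBS + I3C). Its difference of 0.58 between both colitis arrays exceeded the 95th percentile of 0.39 over 3746 coding probe sets of mean signal 5.5 to 7. H2-T24 read 6.07, 5.99, 5.68 and 5.87, and H2-T-ps 8.17, 8.01, 7.89 and 8.06, so both were highest in Vehicle. Cd1d1, which presents lipids to NKT cells, read 5.48, 5.49, 5.40 and 5.72, just above the receptor level, and H2-M3, which presents formylated bacterial peptides, 5.69, 5.61, 5.77 and 5.96. H2-K2 and H2-Bl, listed as transcribed pseudogenes, read 8.64, 8.33, 8.34 and 8.72, and 6.11, 6.13, 6.05 and 6.24. They differed by -0.30 and -0.06 between TNBS + Veh and Vehicle and by 0.38 and 0.19 between TNBS + I3C and TNBS + Veh. H2-M2 went the other way, at 6.05 (Vehicle), 6.30 (I3C), 5.99 (TNBS + Veh) and 5.77 (TNBS + I3C). The other 12 class I genes were dim in all arrays, among them Mr1, which presents vitamin B metabolites to MAIT cells, and 11 of the 13 H2-M genes. Their values ran from 4.03 to 5.26 and their directions cannot be told from background.

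**Figure D2:**
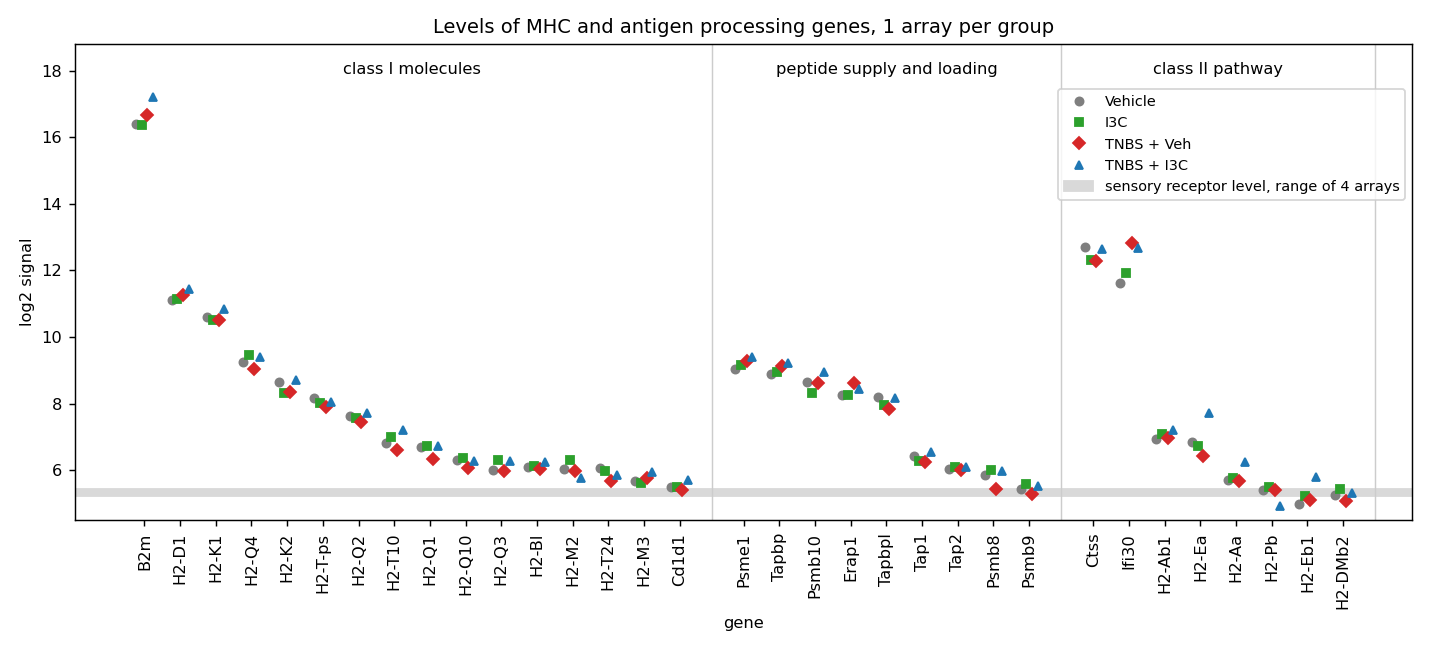
Log2 signal of the 33 class I, peptide supply and class II genes that were above the receptor level in at least 1 array, with 1 point per array and the range of the receptor level (5.23 to 5.43) as a grey band. The TNBS + I3C point is the highest for B2m, H2-D1, H2-K1, H2-Ab1, H2-Ea and H2-Aa, and the TNBS + Veh point is the lowest for all 5 H2-Q genes.

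Peptide supply genes were split in TNBS + Veh, with 3 higher and 6 lower than in Vehicle, where 62.8% of bright coding probe sets were higher. With TNBS + I3C, 8 of 9 were higher than with TNBS + Veh, against 46.3% of bright coding probe sets. The median was 0.25, and 0.12 with dim values raised to 5.43. Psmb8, the immunoproteasome subunit with chymotrypsin-like activity, read 5.86 (Vehicle), 6.0 (I3C), 5.43 (TNBS + Veh) and 5.98 (TNBS + I3C). The array of TNBS + Veh was thus apart from the other 3, which lay within 0.14 of each other. The difference of 0.55 between the colitis arrays was above the 95th percentile of coding probe sets of similar level (0.39), and that of -0.43 between TNBS + Veh and Vehicle was just beyond their 5th percentile (-0.41). Psmb9 read 5.42, 5.59, 5.28 and 5.53, close to the receptor level, with the same array lowest. Psmb10 read 8.64, 8.33, 8.63 and 8.96, so it was lowest in I3C and highest in TNBS + I3C. Psme1, which encodes the α subunit of the proteasome activator PA28, read 9.04, 9.17, 9.28 and 9.40 and was higher than Vehicle in the other 3 arrays.

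Of the transporter genes, Tap1 read 6.42 (Vehicle), 6.28 (I3C), 6.24 (TNBS + Veh) and 6.54 (TNBS + I3C). Tap2 stayed between 6.0 and 6.09 in all 4 arrays. The loading factor gene Tapbp read 8.88, 8.96, 9.12 and 9.23, and Tapbpl, which encodes an editor of the peptides, 8.19, 7.95, 7.85 and 8.17. Erap1, the aminopeptidase that trims peptides in the endoplasmic reticulum, read 8.27, 8.25, 8.62 and 8.45 and was the only one of the 9 to be lower with TNBS + I3C than with TNBS + Veh. Tap1 and Psmb9 are neighbours that start from 1 shared promoter in opposite directions, and their values differed by -0.18 and -0.14 in TNBS + Veh against Vehicle and by 0.30 and 0.25 for TNBS + I3C over TNBS + Veh. With dim values raised to 5.43, those of Psmb9 became 0 and 0.10, and those of Tap1 did not change. The window of Tap1 on the plus strand, chr17:34187306-34187605 (RefSeq, GRCm38.p6), is shown for this reason, with the same marks as above. The capitals are a GATTGG match on the opposite strand, and the window of Psmb9 holds a match too.
Tap1: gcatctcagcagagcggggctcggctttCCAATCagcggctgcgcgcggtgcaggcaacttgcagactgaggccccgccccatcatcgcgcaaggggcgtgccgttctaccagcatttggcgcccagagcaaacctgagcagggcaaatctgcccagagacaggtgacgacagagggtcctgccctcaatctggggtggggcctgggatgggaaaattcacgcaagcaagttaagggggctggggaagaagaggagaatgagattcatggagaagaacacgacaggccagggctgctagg

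Other proteasome genes were compared with these. Only Psmb6 and Psmb7 among them encode standard subunits that immunoproteasome subunits replace. The rest encode shared subunits, activators or an assembly chaperone, so counts over this list do not contrast the forms of the proteasome. Of 8 measured, 6 were higher with TNBS + Veh than with Vehicle and 2 lower (median 0.33), where 62.8% of bright coding probe sets were higher. At 1.5-fold 2 were higher, against 6.06% of coding probe sets. They were Psme3, the nuclear proteasome activator, at 0.73 and Pomp, an assembly chaperone, at 0.64. Psmb6, the standard subunit that Psmb9 replaces, read 7.96 (Vehicle), 7.85 (I3C), 8.38 (TNBS + Veh) and 8.57 (TNBS + I3C). Psmb7, which Psmb10 replaces, read 9.92, 9.69, 10.43 and 10.09. For TNBS + I3C over TNBS + Veh, 3 were higher and 5 lower (median -0.03), where 46.3% of bright coding probe sets were higher. Psmb5, the counterpart of Psmb8, is not named here. Of the chaperones that serve peptide loading and protein folding, all 6 were higher with TNBS + Veh than with Vehicle and all 6 were lower with TNBS + I3C than with TNBS + Veh (medians 0.57 and -0.21), where 62.8% and 46.3% of bright coding probe sets were higher. These comparisons share the TNBS + Veh array. Calr, which encodes the lectin chaperone calreticulin, read 12.96, 13.26, 13.81 and 13.36, and Hspa5 and Ero1a, of general protein folding, were also at least 1.5-fold higher in TNBS + Veh, by 0.84 and 0.80.

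**Figure D3:**
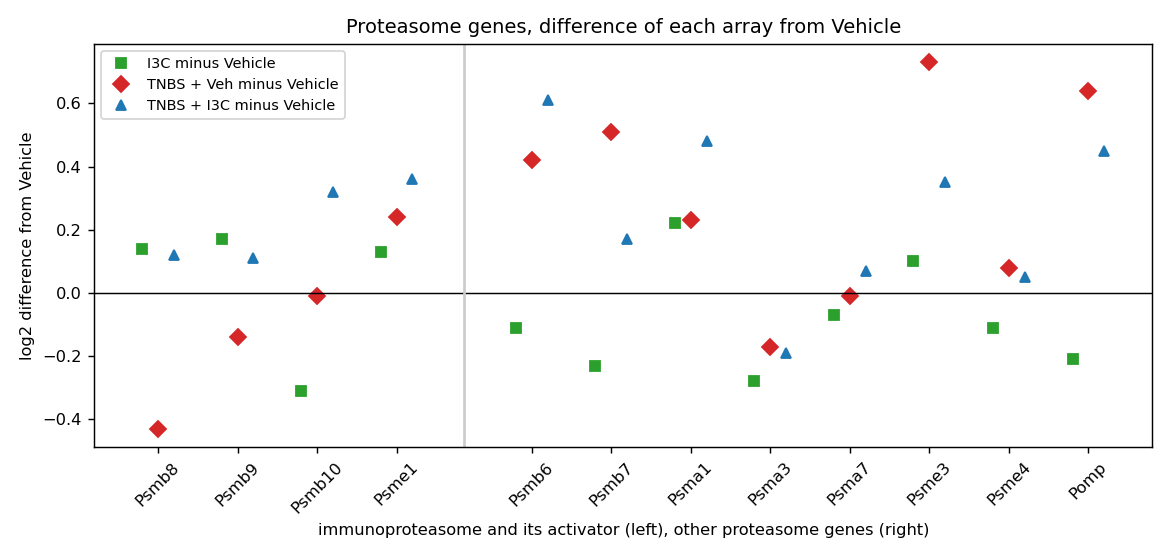
Log2 difference from Vehicle of immunoproteasome genes and Psme1 (left) and of other proteasome genes (right) in I3C, TNBS + Veh and TNBS + I3C, 1 array each. In TNBS + Veh, Psmb8 lies at -0.43 and Psmb9 at -0.14, while Psmb6 lies at 0.42, Psmb7 at 0.51 and Psme3 at 0.73.

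Of 5 class II chain genes, 4 were highest in TNBS + I3C, and for these the other 3 arrays lay within 0.42 of each other. The fifth, H2-Eb2, was dim in all arrays and read 4.73 (Vehicle), 4.75 (I3C), 4.63 (TNBS + Veh) and 4.51 (TNBS + I3C). H2-Ea, which encodes the α chain of the I-E molecule, read 6.84 (Vehicle), 6.72 (I3C), 6.42 (TNBS + Veh) and 7.72 (TNBS + I3C). The gene is intact in BALB/c mice, and in C57BL/6 mice, from which the reference comes, it is inactive and listed as a transcribed pseudogene. Its value in TNBS + I3C was 2.46-fold that of TNBS + Veh, 2.00-fold that of I3C and 1.84-fold that of Vehicle. H2-Eb1, the β chain of I-E, read 4.97, 5.22, 5.11 and 5.81 and was above the receptor level in TNBS + I3C only. Set against the highest receptor level, 5.43, it was higher by at least 0.38 in TNBS + I3C. H2-Aa, the α chain of the I-A molecule, read 5.70, 5.77, 5.68 and 6.25. H2-Ab1, the β chain of I-A, read 6.93, 7.08, 6.98 and 7.21. These 4 chain genes thus had the same highest array, with differences from TNBS + Veh of 1.30 for H2-Ea, 0.57 for H2-Aa, 0.23 for H2-Ab1 and at least 0.38 for H2-Eb1. Over coding probe sets of mean signal 5.5 to 7, the 95th percentile of this difference was 0.39, which H2-Ea and H2-Aa exceeded.

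The genes that load class II molecules were at or below the receptor level. H2-DMb2, a β chain of the exchange factor DM, read 5.25 (Vehicle), 5.42 (I3C), 5.07 (TNBS + Veh) and 5.32 (TNBS + I3C). H2-DMa, H2-DMb1, H2-Oa, H2-Ob and the pseudogene H2-Pa were dim in all arrays, as was H2-Eb2, with values between 4.09 and 5.24. The pseudogene H2-Pb read 5.40, 5.49, 5.39 and 4.93. Ciita, the transactivator of class II genes, read 4.64, 4.71, 4.60 and 4.62 and stayed below the receptor level throughout, so no difference in it was detectable.

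**Figure D4:**
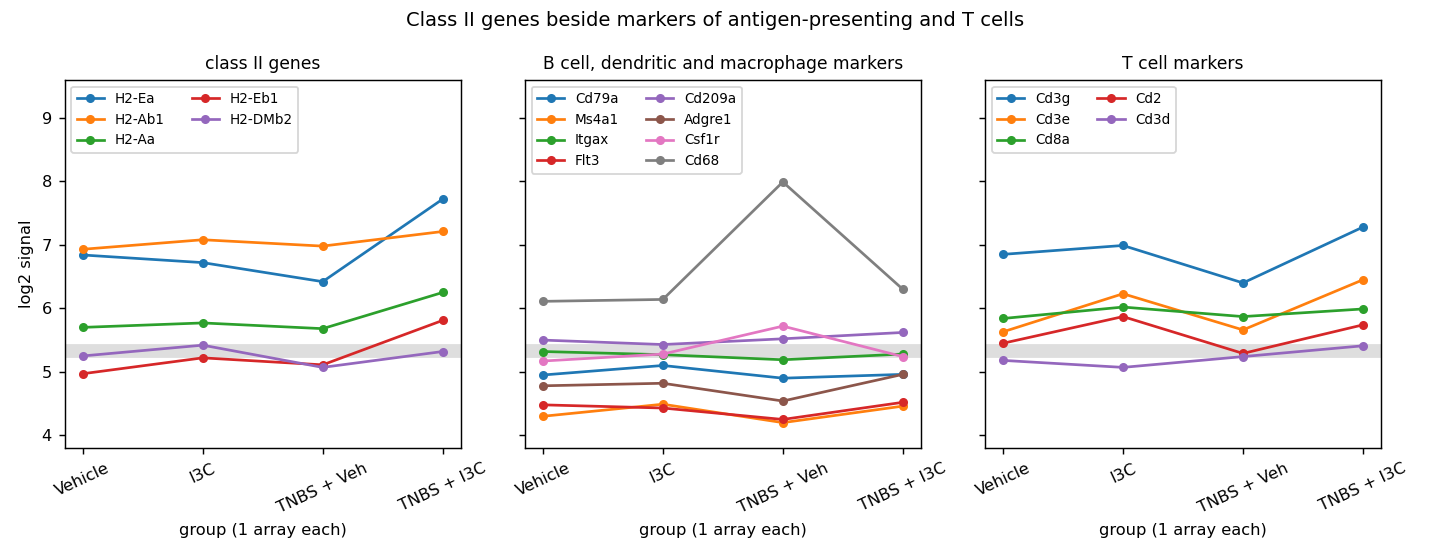
Log2 signal of class II genes (left), of selected markers of B cells, dendritic cells and macrophages (middle) and of T cell markers (right) in the 4 groups, 1 array each, with the receptor level as a grey band and lines that only join the values of a gene. The brighter markers Ccr7 and Mertk are not drawn. H2-Ea, H2-Aa, H2-Eb1 and H2-Ab1 are highest in TNBS + I3C, Cd68 is highest in TNBS + Veh at 7.99, and Cd3g and Cd3e are highest in TNBS + I3C at 7.28 and 6.45.

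Markers of professional antigen-presenting cells were mostly dim. The log2 of the summed signal of 6 B cell markers lay between 7.08 and 7.27 in the 4 arrays, at 7.08 in TNBS + Veh and 7.14 in TNBS + I3C, and Cd79a, Cd79b, Ms4a1, Pax5, Cr2 and Fcer2a were all below the receptor level. The sum of 8 dendritic cell markers was 8.45 in TNBS + Veh and 8.40 in TNBS + I3C, with Itgax, Flt3, Zbtb46, Xcr1, Clec9a and Batf3 not above the level in any array. The sum of 9 macrophage markers was 9.88 and 9.62, with Adgre1, Mrc1, Fcgr1, C1qa, C1qb and C1qc not above it. Cd209a and Csf1r were above it in at least 1 array. The sums mostly follow the brightest markers, at 7.31 and 7.05 for Ccr7, 8.95 and 8.98 for Mertk and 7.99 and 6.30 for Cd68. By any amount, 6 of 8 dendritic cell and 6 of 9 macrophage markers were higher with TNBS + I3C than with TNBS + Veh. Their medians were 0.095 and 0.09, most were dim, and 49.3% of coding probe sets were higher. T cell markers differed among themselves. Cd3g, Cd3e and Cd3d were highest in TNBS + I3C, Cd8a and Cd2 in I3C, and Cd4, Cd5 and Cd8b1 stayed below the receptor level. The sum of the 8 was 8.53 (Vehicle), 8.73 (I3C), 8.37 (TNBS + Veh) and 8.86 (TNBS + I3C), and Cd3g and Cd3e, chains of the T cell receptor complex, were 0.88 and 0.79 higher with TNBS + I3C than with TNBS + Veh. Neutrophil markers were far higher in TNBS + Veh than elsewhere, with sums of 11.64, 12.28, 15.44 and 12.68. The part of antigen-presenting cells, T cells and neutrophils in the values of the MHC genes was not tested.

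The promoters of H2-Aa and H2-Eb1 are shown as the class II windows among the genes that were highest in TNBS + I3C, with the marks explained above. The RefSeq windows (GRCm38.p6) are chr17:34287774-34288073 on the minus strand and chr17:34305617-34305916 on the plus strand.
H2-Aa: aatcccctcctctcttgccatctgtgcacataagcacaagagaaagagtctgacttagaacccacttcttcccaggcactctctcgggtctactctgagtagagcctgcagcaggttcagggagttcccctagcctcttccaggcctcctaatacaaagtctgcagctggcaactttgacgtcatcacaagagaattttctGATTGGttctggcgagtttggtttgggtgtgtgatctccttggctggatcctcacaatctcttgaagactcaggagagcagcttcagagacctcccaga
H2-Eb1: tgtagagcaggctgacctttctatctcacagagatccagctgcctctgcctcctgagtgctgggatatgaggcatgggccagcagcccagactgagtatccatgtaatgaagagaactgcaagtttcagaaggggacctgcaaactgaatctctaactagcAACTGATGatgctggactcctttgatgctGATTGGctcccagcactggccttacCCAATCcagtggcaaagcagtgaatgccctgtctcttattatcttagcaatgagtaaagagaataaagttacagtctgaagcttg
Both hold GATTGG on the plus strand of the gene, and the H2-Eb1 window also holds the X box letters AACTGATG. Of the 38 genes, 4 had these letters in any of their windows, and 0.776% of all single windows had them. The others with these letters were H2-DMb1, H2-Eb2 and H2-M10.4, all dim here.

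Ctss and Ifi30, which act in endosomes, were not highest in TNBS + I3C. Ctss, the cathepsin that cuts the invariant chain, read 12.70 (Vehicle), 12.32 (I3C), 12.27 (TNBS + Veh) and 12.65 (TNBS + I3C), so it was highest in Vehicle. Ifi30 read 11.61, 11.93, 12.81 and 12.66, so it was high in both colitis arrays and differed by -0.15 between them. Quantile normalization gave 0.97 and 0.88 in place of 1.20 and 1.05 for the differences of Ifi30 from Vehicle, which puts both under 2-fold. The difference of 1.20 lay just above the 95th percentile of 1.12 over coding probe sets of mean signal 10 to 14. Ifi30 is strong in myeloid cells, and the neutrophil gene Csf3r read 6.07, 5.88, 9.99 and 6.35 and Cd68, of macrophages and other myeloid cells, 6.11, 6.14, 7.99 and 6.30, so that both were highest in TNBS + Veh. The part of myeloid cells in the values of Ifi30 was not tested. The list of endosomal proteases, which also holds the inhibitor gene Cst3, was compared next. Of 7 measured genes, 5 were higher with TNBS + Veh than with Vehicle (median 0.49), against 62.8% of bright coding probe sets. Lgmn and Ctsb were past 2-fold, at 1.12 and 1.09, against 1.77% of coding probe sets. All 7 were higher in TNBS + I3C than in Vehicle (median 0.36), against 64.8%, with Ctsl at 0.78.

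**Figure D5:**
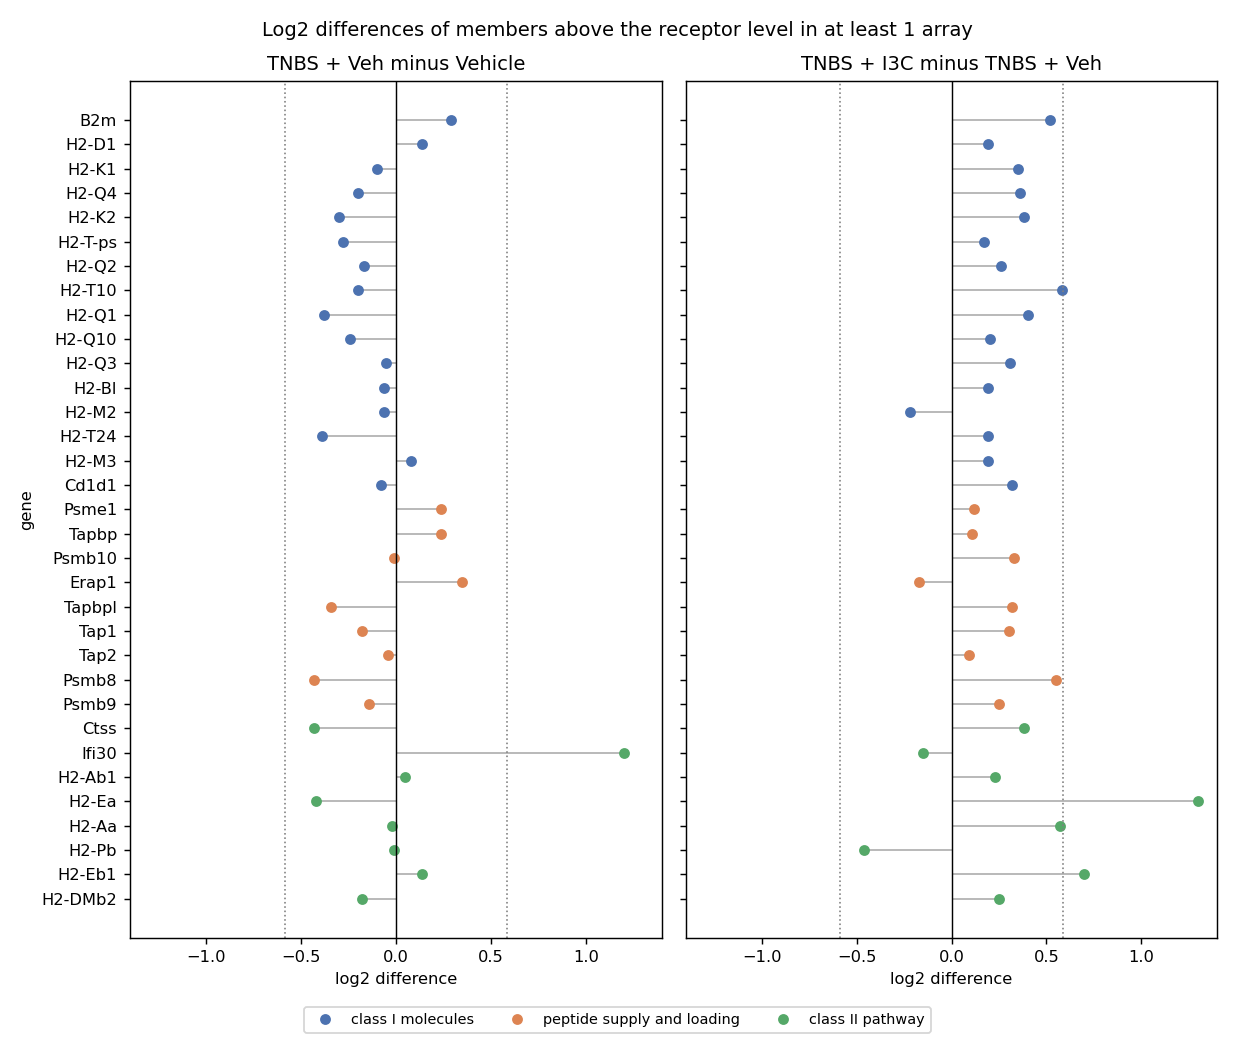
Log2 difference of 33 genes above the receptor level in at least 1 array, for TNBS + Veh minus Vehicle (left) and TNBS + I3C minus TNBS + Veh (right), coloured by group, with dotted lines at 1.5-fold. Ifi30 at 1.20 is the only point past 1.5-fold on the left, and H2-Ea at 1.30 and H2-Eb1 at 0.70 are those past it on the right, where the point of H2-Eb1 is measured against a value at background and its bound is 0.38.

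Upstream genes of the pathway mostly differed by less than 1.5-fold. Of 11 measured genes of interferon-γ signalling, 6 were higher, 4 lower and 1 equal in TNBS + Veh against Vehicle, none by 1.5-fold (median 0.03). Of coding probe sets, 46.2% were higher there. For TNBS + I3C over TNBS + Veh, 8 were higher and 3 lower (median 0.16), against 49.3% of coding probe sets higher. Stat2, which acts in signalling by type I interferons, was the only one at least 1.5-fold apart, at 8.09 (Vehicle), 8.05 (I3C), 7.58 (TNBS + Veh) and 8.28 (TNBS + I3C). Of coding probe sets, 2.63% were 1.5-fold higher with TNBS + I3C than with TNBS + Veh and 2.66% lower. Irf1, an activator of class I and peptide supply genes, read 11.12, 11.35, 11.32 and 11.41. Ifng and Socs1 stayed below the receptor level throughout. Of the 7 measured factors of the X and Y boxes, 4 were higher and 3 lower in both colitis comparisons (medians 0.23 and 0.06), with none past 1.5-fold. Of bright coding probe sets, 62.8% and 46.3% were higher in these comparisons. Rfx5, a subunit of the RFX complex, read 6.88, 6.86, 6.77 and 7.21, highest in TNBS + I3C.

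Of 8 genes of T cell costimulation, 3 were at least 1.5-fold higher with TNBS + Veh than with Vehicle, Cd80, Icosl and Cd274, against 6.06% of coding probe sets. Cd86, Cd40 and Pdcd1lg2 stayed below the receptor level. By any amount 7 were higher in that comparison (median 0.35), against 46.2% of coding probe sets, and 6 were lower with TNBS + I3C than with TNBS + Veh (median -0.17), where 49.3% of coding probe sets were higher. Cd80, a ligand of CD28, read 5.16 (Vehicle), 5.59 (I3C), 6.92 (TNBS + Veh) and 6.18 (TNBS + I3C). Cd274, the inhibitory ligand PD-L1, read 6.33, 6.42, 7.11 and 7.05, and Icosl 7.32, 7.45, 8.10 and 7.63. Of 5 measured class I-like genes outside the H2 complex, 1 was at least 1.5-fold higher with TNBS + Veh than with Vehicle, against the same 6.06%. This was Fcgrt, which encodes the neonatal Fc receptor, at 7.85, 7.53, 8.74 and 8.35. Fcgrt was thus highest in TNBS + Veh, unlike the H2-Q and H2-T genes.

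The effect of TNBS without I3C (TNBS + Veh minus Vehicle) and with it (TNBS + I3C minus I3C) rests on separate arrays. Of the 53 genes, 16 were lower without I3C and higher with it, 3 the reverse, 20 lower in both, 12 higher in both and 2 equal in 1 of the pairs. In all, 15 were higher without I3C and 29 with it, against 8914 and 9337 of 19296 coding probe sets. Among the 31 bright genes these were 8 and 23, against 6193 and 6622 of 9863 bright coding probe sets. The share of coding probe sets with each joint pattern was not computed, and 19 of the 53 genes were dim in all arrays. H2-Ea differed by -0.42 and 1.00, H2-Aa by -0.02 and 0.48, B2m by 0.29 and 0.82 and Psmb8 by -0.43 and -0.02. The difference between the effects could not be tested, and it rests on 1 array per group. Among the genes of opposite sign, a difference of at least 1.5-fold was seen for H2-Ea and for Psmb10 (-0.01 and 0.63), both with I3C. The -0.01 of Psmb10 became 0.01 after median centring, so its sign without I3C is not defined. No gene had opposite signs with both differences at least 1.5-fold.

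Likeness was taken as the root mean square distance over the 4 arrays after each gene was centred, among 10669 coding genes above the receptor level in at least 1 array. Nearest to Psmb8 were Gm9789 (0.0148), Itgae (0.0319), Rnase9 (0.0381), Panx1 (0.0383) and Oxct1 (0.0432). Nearest to H2-Aa were Lurap1l (0.0249), Inafm1 (0.0269), Epas1 (0.0354), the olfactory receptor gene Olfr837 (0.0406) and Narf (0.0460). With 4 values per gene, this likeness is a description only.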

How the data were processed

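Arrays (Clariom D, mouse) were hybridized by the authors with RNA of EPCAM-enriched CECs, 1 pooled sample per group. The authors deposited log2 probe set signals from the Transcriptome Analysis Console, named in the submitters' processing notes. Genome build, background correction and normalization were not given in the sources used here. Precision is limited by the number of arrays, and no test, error or p-value was computed.

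Genes were named by the platform annotation, and coding probe sets are those with 1 symbol of RefSeq class protein coding, matched by gene number and then by symbol (GRCm38.p6, for names and promoter windows only). Log2 differences were taken for 4 comparisons, with 2-fold and 1.5-fold thresholds set beside the share of all coding probe sets. Every member above the receptor level in at least 1 array could be named, and list genes were named at 1.5-fold, together with a few fixed genes. The members, lists and the receptor level were chosen with earlier results of these data known. The 2-fold call was tested on simulated data, and the 1.5-fold count was not. Alternatives were quantile normalization, median centring, dim values raised to 5.43, the mean of all probe sets of a gene, dim genes left out and, for counts, 1.5-fold. Counts of genes higher by any amount were added after seeing the data. Further cell markers shown beside a result were chosen for display after their values were seen. Tools were pandas 2.3.3, numpy 2.4.6 and matplotlib 3.10.9 under Python 3.11.15.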

Additional observations from a re-analysis of the deposited data

How the results depend on the processing

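Among the genes and counts that were recomputed, which do not include the genes of the lists or the dim H2-M1, no alternative turned the direction of a difference of at least 1.5-fold. H2-Eb1, at 0.70 over TNBS + Veh and 0.84 over Vehicle in TNBS + I3C, came to 0.38 in both with dim values raised, under 1.5-fold. Counting with the mean of all probe sets of a gene changed nothing, since each gene had 1 probe set. The count of genes higher with TNBS + I3C than with TNBS + Veh was 43 as deposited, 42 after quantile normalization, 43 after median centring and 29 with dim values raised to 5.43, where genes that are dim in both arrays become equal. In TNBS + Veh against Vehicle, 15 were higher as deposited, 25 after quantile normalization, 8 with dim values raised and 9 with the 19 dim genes left out, and the class II median of -0.11 became 0.001 after quantile normalization and 0 with dim values raised. In I3C against Vehicle, 34 became 18 with dim values raised and 20 without dim genes. Ifi30, the only gene 2-fold higher in TNBS + Veh or in TNBS + I3C against Vehicle, fell short after quantile normalization, leaving 0 genes in both. At 1.5-fold, 2 genes were higher for TNBS + I3C over TNBS + Veh and 5 against Vehicle, in place of 1 each. With dim values raised, the medians for TNBS + I3C over TNBS + Veh were 0.12 for peptide supply (0.25 as deposited) and 0 for class II (0.24), and the class I median in TNBS + I3C against Vehicle was 0 (0.135). The class II median there, 0.02, was 0.131 after quantile normalization and 0.415 without dim genes. The cause of the changes after quantile normalization was not tested. No paired analysis was possible because each group has 1 array.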
